A study of Mus musculus with 4 samples.

Results

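The semaphorins, plexins, neuropilins, Eph receptors, ephrins, Slits, Robos and netrins with their receptors are the guidance ligands and receptors first described in growing axons. The 60 genes described here were taken as a list of names from these families, 33 ligands and 27 receptors among 21900 placed protein-coding genes. Each was given the rows of the deposited peak lists that carry its symbol. At day 20, 46 of the 60 had at least 1 row and together they held 259 of the 56695 peaks. At day 0, 2 of the 60 had a row, with 2 of the 1050 peaks.

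The samples came from ATDC5, a mouse cell line that grows as chondroprogenitors and becomes chondrocyte-like when insulin, transferrin and selenite are added to its medium. The chondroprogenitor group had 2 libraries from day 0, before that addition. The chondrocyte group had 1 library labelled day 19 and 1 labelled day 20, grown in the same basal medium with the addition. All 4 libraries came from this single line, and their DNA was enriched for 5-hydroxymethylcytosine (5hmC), the oxidised form of 5-methylcytosine made by TET enzymes, with a chemical capture kit. Each deposited list is headed as the merged samples of 1 stage, and the labels tie the day 20 list to the day 20 library alone, so whether the day 19 library entered it is not stated. With 1 list per stage, no spread between replicates could be measured and no p-value is given. No read depth, height, fold or p-value per peak was used here. Every interval in parentheses is a 95% interval by Wilson's method, which reflects counting error alone. Of 10 cartilage genes used as a check of the cell type, 9 had a day 20 row (59.6 to 98.2%, against 43.9% of all protein-coding genes), Col2a1 and Acan among them, and Col10a1 had none by symbol but 1 peak in its body. A peak is not a measure of expression, so the cell type itself could not be checked.

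Semaphorins are secreted or membrane-bound proteins that act through plexins, and the secreted class 3 members mostly need a neuropilin as co-receptor. Ephrins are membrane-bound ligands of the Eph receptor tyrosine kinases, and signals pass in both directions between touching cells. Slits are large secreted ligands of the Robo receptors, and netrins are secreted, laminin-related ligands of Dcc, neogenin and the Unc5 receptors. In the skeleton several of these proteins are known from the dialogue between bone-forming and bone-resorbing cells and from the entry of vessels and nerves. In many cell types 5hmC is found in the bodies of active genes and at enhancers.

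The list as a whole was covered more widely than genes at large, but its genes were also much longer. Its members were chosen with earlier results of these data known, so the intervals below are no test of the wider coverage. A day 20 row was present in 76.7% of the members (64.6 to 85.6%), against 43.9% of all protein-coding genes. The median member was 112 kb long and the median protein-coding gene 17.1 kb. Within length classes the members lay above the other genes in 4 of the 5 classes. Of the 15 members under 20 kb, 9 had a row (60%, 35.7 to 80.2%), against 25.8% of all genes of that length. All 12 members of 20 to 50 kb and all 9 of 50 to 150 kb had one, against 55.1% and 74.9%, with intervals that began at 75.8% and 70.1%. Of the 10 members of 150 to 300 kb, 9 had one (90%, 59.6 to 98.2%), against 82.4%. Among the 14 members over 300 kb the order turned: 7 had a row (50%, 26.8 to 73.2%), against 71.8%. The interval left out the value of all genes in the 2 classes under 50 kb and included it in the 3 longer classes. By position in the gene body, 6 of the 15 members under 20 kb had a peak (40%, 19.8 to 64.3%). That interval includes the 25.8% given above, which is a share by symbol. No share by position was taken over all genes of that length. The plot of peaks against gene length shows both groups of long genes.

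**Figure D1:**
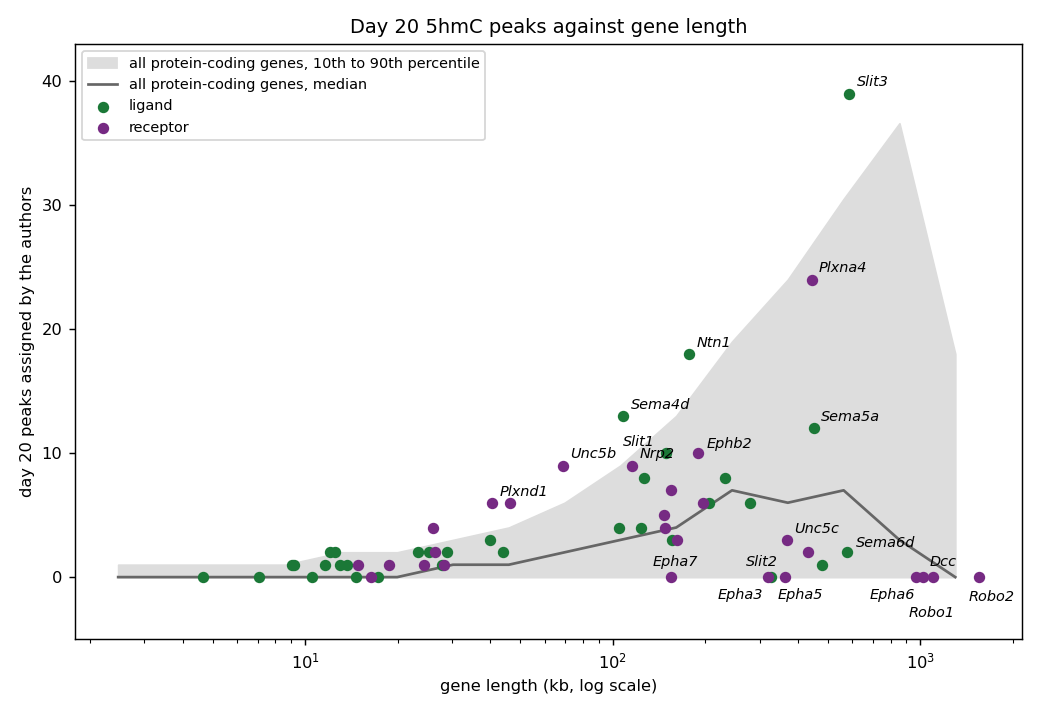
Day 20 peaks assigned to each of the 60 guidance genes (vertical axis, number) against gene length (horizontal axis, kb, log scale), with ligands in green and receptors in purple. The grey line and band give the median and the 10th to 90th percentile over all protein-coding genes, and Slit3, with 39 peaks, lies above the band while 8 genes over 150 kb lie at 0.

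The peaks were concentrated in few genes. The 5 members with the most rows held 106 of the 259 (40.9%), and the first 10 held 152 (58.7%). Slit3, a secreted Robo ligand, had 39 rows. The receptor Plxna4 had 24 and the ligands Ntn1, Sema4d and Sema5a had 18, 13 and 12. Ephb2 and Slit1 had 10 each, Nrp2 and Unc5b 9 each, and Sema3e 8, the same number as Sema6a, a shorter gene. At the other end, 14 members had no row. These were the ligands Sema4g, Sema6b, Efna2, Efna4, Efnb3 and Slit2 and the receptors Plxna3, Epha3, Epha5, Epha6, Epha7, Robo1, Robo2 and Dcc. Of those 14, 6 were under 20 kb, where most genes have no row, and 8 were over 150 kb.

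**Figure D2:**
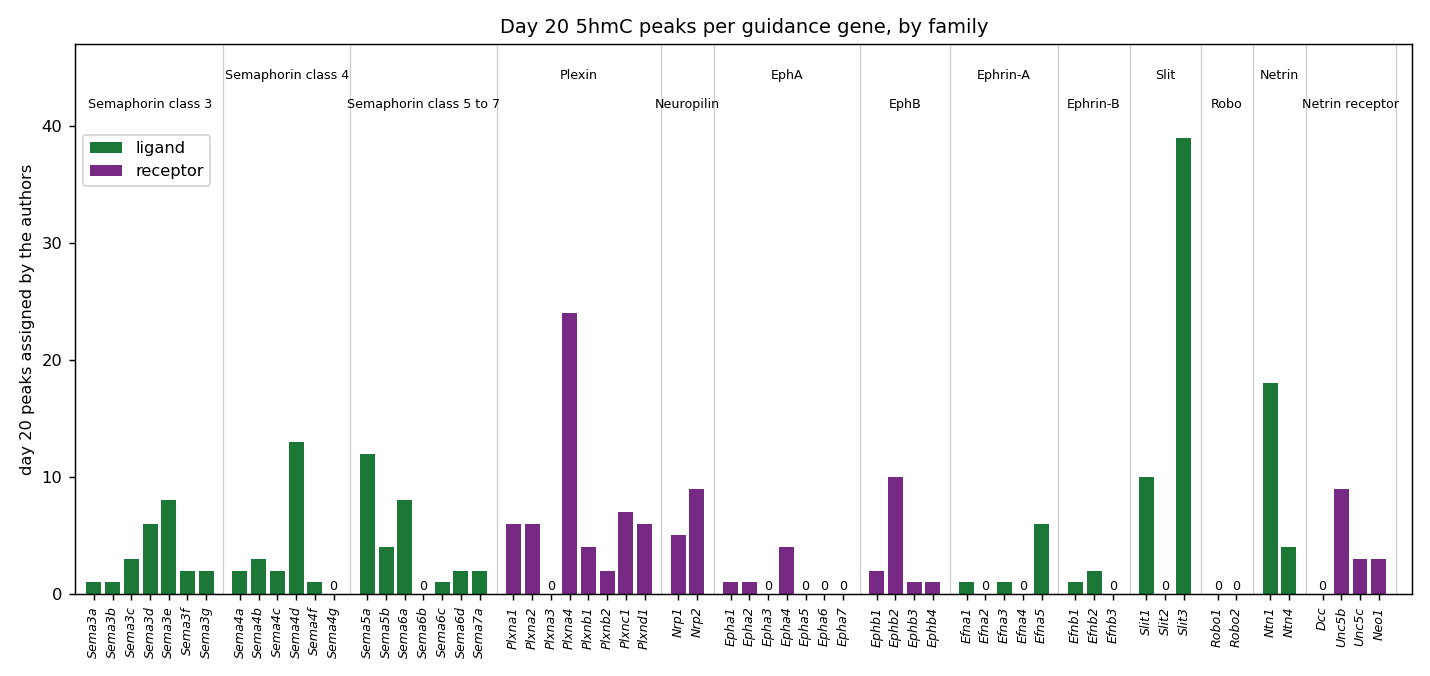
Number of day 20 peaks assigned by the authors to each guidance gene, grouped by family along the horizontal axis, with ligands in green and receptors in purple. The tallest bars are Slit3 (39) and Plxna4 (24), both Robo genes are at 0, and so are 4 of the 7 EphA genes.

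The class 3 semaphorins, the secreted ligands that bind neuropilins, all had a day 20 row, 23 in 7 genes. By position 6 of the 7 had a peak in the gene body. Beside this and the family counts below stands the share of 43.9% over all protein-coding genes. That share ran from 25.8% under 20 kb to 82.4% at 150 to 300 kb, and the median class 3 gene was 155 kb long. Sema3e, which can signal through Plxnd1 without a neuropilin, had 8 rows and Sema3d had 6. Sema3c had 3, Sema3f and Sema3g 2 each, and Sema3a and Sema3b 1 each. Sema3a, the founding repellent of the class, spans 479 kb and held 5 peaks by position, of which the authors' annotation named 1. The other 4 had no symbol and lay between 13136013 and 13384966 on chromosome 5, before the start of its RefSeq promoter entry at 13396784. The only peak named for Sema3b lay 56 bp outside the gene. Class 3 peaks had a median width of 474 bp (quartiles 385 and 614.5 bp) against 591 bp over the day 20 list. The peaks of Sema3a, Sema3c, Sema3d and Sema3e, which lie near each other on chromosome 5, were at most 635 bp wide. The peak of Sema3b measured 497 bp, those of Sema3f 747 and 974 bp and those of Sema3g 692 and 1407 bp.

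Among the membrane-bound semaphorins of class 4, 5 of 6 genes had a row. Sema4d, a plexin-B1 ligand known from osteoclasts, where it restrains bone formation, had 13 rows in 108 kb. That is 12.02 per 100 kb. Of 2168 protein-coding genes of similar length (within 1.5 times), 47 had more rows, and their median was 3. Sema4b had 3 rows, Sema4a and Sema4c 2 each, Sema4f 1 and Sema4g none. Class 4 peaks were wide, with a median of 789 bp, and 8 of 21 (38.1%) reached 1 kb, against 12.4% of the whole list. Sema4d gave 13 of these 21 peaks and 5 of the 8. In classes 5 to 7, 6 of 7 genes had a row, 29 in all. Sema5a, which carries thrombospondin repeats, had 12 rows across 452 kb, and Sema5b 4 across 123 kb. Sema6a, a transmembrane ligand of plexins A2 and A4, had 8. Sema6d had 2 rows but 8 peaks by position, and the 6 that the authors did not give to it lay between 124131184 and 124534082 on chromosome 2. Sema7a, the lipid-anchored member, had 2, of which 1 was 1701 bp wide, and Sema6c had 1.

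The plexins, the signalling receptors of the semaphorins, had a row in 7 of 8 genes, with 55 rows in all. Plxna4 had 24 rows in 444 kb on chromosome 6. Of 437 genes of similar length, 54 had more. That is 5.41 per 100 kb. Plxna2 (3.04 per 100 kb) and Plxnc1 (4.54) were less dense, and 4 shorter plexins were denser. Plxnb1, the Sema4d receptor, had 4 rows in 26.1 kb (15.3 per 100 kb), Plxnd1 had 6 in 40.5 kb (14.8), Plxna1 6 in 46.3 kb (13.0) and Plxnb2 2 in 26.5 kb (7.55). For Plxnd1, 27 of 4040 genes of similar length had more rows, for Plxnb1 72 of 4733 and for Plxna1 59 of 3744. Plxnd1, known from blood vessel patterning, carried wide peaks, of which 4 measured 1274, 1557, 1597 and 1664 bp. Plxna2 had 6 rows and Plxnc1, the Sema7a receptor, had 7. Plxna3, the X-linked plexin of the list, had none. Its 500 kb flanks on either side held 3 peaks, and the median over protein-coding genes was 29. Both neuropilins were covered. Nrp2 had 9 rows in 115 kb, including peaks of 1842 and 2172 bp, and Nrp1, which is also a VEGF co-receptor, had 5 in 147 kb.

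All 4 EphB genes had a row, 14 in all, and 3 of 7 EphA genes did, with 6 rows in 1999 kb. Ephb2 had 10 rows in 189 kb, and Ephb1 had 2 in 433 kb. The short genes Ephb3 (18.7 kb) and Ephb4 (24.4 kb) had 1 each. Of the EphA genes, Epha4 had 4 rows in 148 kb, and the short genes Epha1 and Epha2 had 1 each, that of Epha2 being 2154 bp wide. Epha3 (321 kb), Epha5 (363 kb), Epha6 (969 kb) and Epha7 (154 kb) had none. Among genes of similar length to Epha3, Epha5 and Epha7 the share with no row was 17.8% of 668, 18.1% of 552 and 18.1% of 1539. For Epha6 it was 41.9% of 124. The intervals on the shares of EphA (42.9%, 15.8 to 74.95%) and EphB genes (100%, 51.0 to 100%) overlap, and the EphA genes without a row were all longer than 150 kb.

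The ephrins, which bind these receptors, are mostly short genes and had few peaks. Of 5 ephrin-A genes 3 had a row, and of 3 ephrin-B genes 2 did. Efna5, the long one at 278 kb, had 6 rows. Efnb2, the Ephb4 ligand of arteries, had 2 rows in 44.01 kb, at 8620552 to 8621050 and 8659228 to 8659824 on chromosome 8. Efna1, Efna3 and Efnb1 had 1 each, and those of Efna1 and Efnb1 lay outside the gene, 7363 bp before its start and 1120 bp past its end. Efna2, Efna4 and Efnb3 had none, and each is under 20 kb long. Efna1, Efna3 and Efna4 lie side by side on chromosome 3, where 66.3 kb from the first to the last boundary held 3 peaks.

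The Slit and Robo genes differed widely between paralogs. Slit3 held 39 rows in 587 kb on chromosome 11 (35121456 to 35708507) and Slit1 held 10 in 149 kb on chromosome 19. Slit2 held none in 326 kb on chromosome 5 (47981291 to 48307735). By row number Slit3 ranked 14 among all protein-coding genes, and 7 of 282 genes of similar length had more. Among 655 genes similar in length to Slit2, 18.2% had no row. Its flanks of 500 kb on either side held 3 peaks. Slit3 peaks reached 3103 bp (35152821 to 35155923) and 2296 bp (35623202 to 35625497), which ranked 1 and 3 by width among the member peaks. Neither Robo gene had a row. Robo1 spans 1020.0 kb and Robo2 1555 kb, and among genes of similar length 41.0% of 117 and 49.0% of 51 had no row either. By position Robo2 held 3 peaks without a symbol, between 74478896 and 74547978 on chromosome 16. Neither of the 2 Robo genes in the list thus had an assigned peak, while 2 of the 3 Slit genes had 49.

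Slit2 and Slit3 each host a copy of the microRNA miR-218, and the mature sequences from RefSeq (GRCm38.p6) are shown because the same 5p product comes from a host without peaks and a host with many. Capitals mark the seed, bases 2 to 8.
mmu-miR-218-5p, from both hosts: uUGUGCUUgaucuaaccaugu
mmu-miR-218-1-3p, Slit2: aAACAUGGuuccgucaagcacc
mmu-miR-218-2-3p, Slit3: cAUGGUUCugucaagcaccgcg
The 3p products have different seeds. The hairpin in Slit3 (chr11:35616816-35616925) lay 6.28 kb from the 2296 bp peak named above. The hairpin in Slit2 (chr5:48223942-48224051) lay 107 kb from the nearest day 20 peak, which was outside the gene. No peak overlapped either hairpin.

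Both netrins had a row, and they differed in density. Ntn1, the classical attractant of commissural axons, had 18 rows at 177 kb, or 10.1 per 100 kb, and 39 of 1277 genes of similar length had more. Its peaks were wide, with a median of 780 bp, and 7 of 18 reached 1 kb. Ntn4, a basement membrane netrin, had 4 rows in 105 kb (3.81 per 100 kb), and 768 of 2219 genes of similar length had more. Of the netrin receptors, 3 of 4 had a row. Unc5b, a repulsive receptor also known from endothelium, had 9 in 69.0 kb (13.0 per 100 kb), and 48 of 2979 genes of similar length had more. One of its peaks, at 60794478 to 60797573 on chromosome 10, was 3096 bp wide and the second widest in the member list. Unc5c had 3 rows in 369 kb. Neo1, which also binds the repulsive guidance molecules and takes part in BMP signalling, had 3 in 162 kb. Dcc, the main attractive netrin receptor, had none in 1098 kb, like 42.1% of 107 genes of similar length.

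Ligands and receptors were then compared as groups. A row was present in 27 of 33 ligands (81.8%, 65.6 to 91.4%) and 19 of 27 receptors (70.4%, 51.5 to 84.1%), and these intervals overlap. With peaks counted by position in the gene body the order turned, with 24 ligands (72.7%) and 20 receptors (74.1%), together 44 of 60 members against 40.5% of protein-coding genes. With 5 kb added on both sides, 48 of the 60 members had a peak, against 50.8% of protein-coding genes. The shift came from Efna1, Efnb1 and Sema3b, whose assigned peaks lay outside the gene, and from Robo2. The median gene in both groups had 2 rows. Per length the median was 4.54 rows per 100 kb in ligands and 3.40 in receptors, and by position it was 3.25 and 3.40. Thus neither measure ordered the groups under both ways of assigning peaks.

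Over summed length the groups differed more, with 155 rows in 4406 kb of ligand genes (3.52 per 100 kb) and 104 rows in 8149 kb of receptor genes (1.28). Most of the receptor length lay in 9 genes over 300 kb, of which 3 had a row (33.3%, 12.1 to 64.6%): Plxna4, Ephb1 and Unc5c. Of 5 ligands over 300 kb, 4 had one (80.0%, 37.6 to 96.4%): Sema3a, Sema5a, Sema6d and Slit3. Among genes of at most 300 kb the densities were 5.09 rows per 100 kb in 28 ligands and 4.75 in 18 receptors. Counted by position they were 4.54 and 4.56, so the order turned. In the class of 20 to 50 kb receptors were the denser group, with 10.4 against 6.34 rows per 100 kb in 6 genes each. In the other 4 classes ligands were denser. The values were 6.66 against 4.01 under 20 kb and 6.38 against 5.63 at 50 to 150 kb. They were 3.91 against 3.04 at 150 to 300 kb and 2.23 against 0.441 above that. Counted by position, the order under 20 kb turned, with 3.70 for 12 ligands and 4.01 for 3 receptors. By the median gene, receptors were denser at 150 to 300 kb as well, with 3.04 against 2.92 rows per 100 kb. Single genes gave many of the ligand rows: Sema4d 13 of 39 at 50 to 150 kb, Ntn1 18 of 41 at 150 to 300 kb and Slit3 39 of 54 above that.

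By signalling system, 27 of the 30 semaphorin, plexin and neuropilin genes had a row (90%, 74.4 to 96.5%), against 43.9% of all protein-coding genes. The share was 12 of 19 in the ephrin and Eph genes (63.2%, 41.0 to 80.9%), 5 of 6 in the netrin genes and 2 of 5 in the Slit and Robo genes. These intervals overlap. Median gene length was 43.4 kb in the semaphorin system, 28.2 in the ephrin, 170 in the netrin and 587 in the Slit system. Over all genes the share ran from 25.8% under 20 kb to 82.4% at 150 to 300 kb, and the systems were not matched for length. The semaphorin system held 142 of the 259 rows, the Slit system 49 (39 of them in Slit3), the netrin system 37 and the ephrin system 31.

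The surroundings of the long genes differed along with the genes. The 8 members over 150 kb without a row had between 0 and 7 day 20 peaks in the 500 kb on either side together, and Epha3, Epha5, Robo1, Robo2 and Dcc had 0. The 16 members over 150 kb with a row had between 6 and 74. Over all protein-coding genes 9.02% had no peak in these flanks. Among the 157 protein-coding genes over 300 kb without a row it was 38.2%, and among the 400 with a row 2.25%. Epha6, Epha3, Robo1 and Robo2 lie in 1 stretch of 15.8 Mb on chromosome 16 (59641433 to 75447443). That stretch held 27 peaks, or 1.71 per Mb, against 21.0 per Mb between the first and the last peak of the chromosome, and 5 of its 20 protein-coding genes had a row. The long class 3 genes Sema3d, Sema3a, Sema3e and Sema3c lie within 5.35 Mb on chromosome 5, which held 50 peaks, or 9.35 per Mb against 28.4 for the chromosome.

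Some other members stood above their surroundings, and those given here are examples. Slit3 had 6.47 peaks per 100 kb in its body and 1.5 in its flanks, a ratio of 4.32. Sema6a had 6.35 and 1.5 (ratio 4.23), Plxna4 5.41 and 1.90 (ratio 2.85), and Sema3e 3.02 and 0.900 (ratio 3.36). Plxnb1 had 15.3 and 1.70, on 4 peaks. In Sema4d and Ntn1 the flanks were nearly as dense as the gene, with 11.1 against 8.70 and 9.02 against 7.40. Ephb1 was the reverse case, with 0.462 peaks per 100 kb in the gene and 4.60 in the flanks. Neo1 also lay below its flanks, with 1.85 against 4.10. Of members not given so far, Nrp1 (ratio 3.40) and Plxna2 (3.38) lay above their flanks, and Sema3a (0.550) and Ntn4 (0.669) below. How often a gene is denser than its flanks was not counted over all protein-coding genes. What sets the regional density was not tested.

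**Figure D3:**
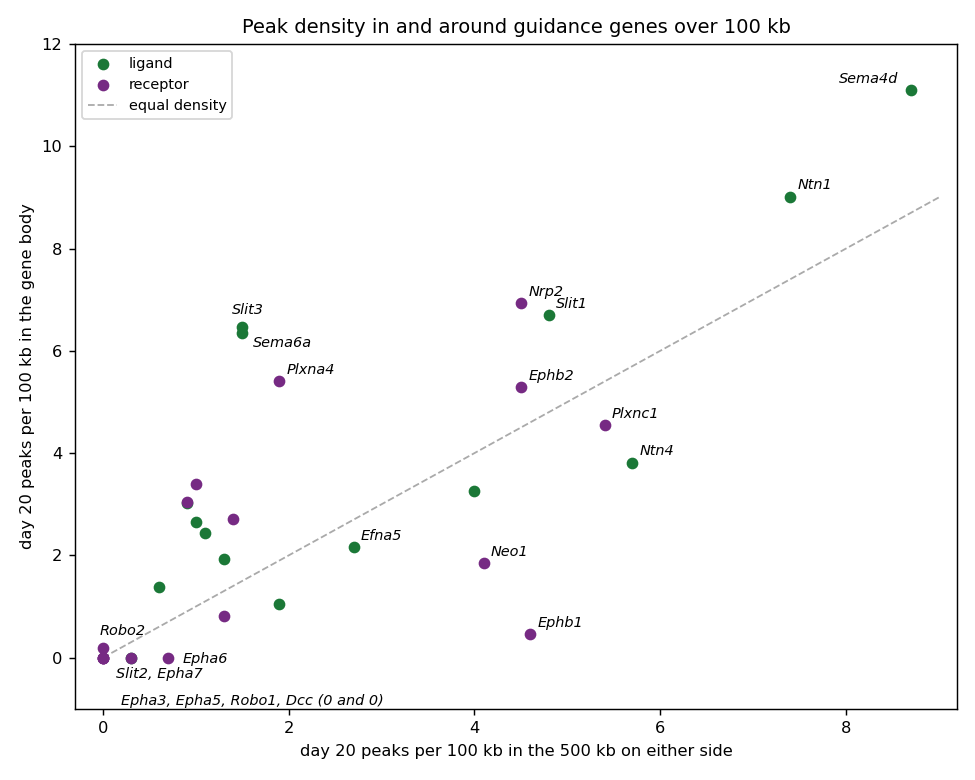
Day 20 peaks per 100 kb in the gene body (vertical axis, by position) against the density in the 500 kb on either side (horizontal axis) for guidance genes over 100 kb, with ligands in green, receptors in purple and a dashed line at equal density. Slit3, Sema6a and Plxna4 lie above the line, Ephb1 and Neo1 below it, and Epha3, Epha5, Robo1 and Dcc sit at 0 on both axes.

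Peaks lay mainly inside the genes they were assigned to. The midpoint was inside for 241 of 259 (93.1%, 89.3 to 95.6%), against 88.9% over all protein-coding genes with strand. In genes over 100 kb it was inside for 96.1% of member peaks and 97.2% of the peaks of all such genes. The member peak assigned farthest outside its gene lay 7678 bp from Ntn1. Strand was known for the 51 members with a RefSeq promoter entry, and Sema3b, Sema3f, Sema6a, Plxna1, Plxna4, Efnb3, Slit1, Ntn1 and Dcc were left out of what follows. Of 190 peaks in members of known strand, 8 (4.21%, 2.15 to 8.09%) lay within 1 kb of a promoter entry's start, against 8.29% over all protein-coding genes. For genes over 100 kb the values were 2.72% and 2.69%. These 8 peaks belonged to Plxnb1, Ephb1, Sema3c, Sema3d, Sema4b, Sema4c, Sema4d and Sema6c, 6 ligands and 2 receptors. The median distance of a member peak to the nearest start of a promoter entry was 53.1 kb.

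Each gene was divided into 3 equal parts from its outer boundary on the start side, wherever its promoter entries lay. The opening part held 78 of 176 peaks (44.3%, 37.2 to 51.7%). Over all protein-coding genes with strand it held 35.2%. The middle part held 41 (23.3%, 17.7 to 30.1%), against 32.7%, and the closing part 57 (32.4%), against 32.1%. Without Slit3, which gave 38 of these peaks, the opening part held 42.8%. It held 47.2% in ligands (37.9 to 56.6%) and 40.0% in receptors (29.3 to 51.7%), and these intervals overlap. The families differed, from 1 of 6 peaks in EphA genes and 4 of 13 in neuropilins to 19 of 38 in Slit genes and 7 of 13 in EphB genes. Peaks of 1 gene are not independent, and the intervals do not cover that. Sema5a was an example of the skew, with 8 of 12 peaks in its opening part, and its longest stretch without a peak, 130 kb, lay between the last 2 peaks. In Slit3, 19 of 38 peaks lay there, and its longest stretch without a peak was 72.4 kb. Sema4d had 7 of 12 in its opening part. These lay upstream of all its promoter entries, which start inside the gene, the outermost at 51756683. Plxnc1 ran the other way, with 2 of 7 in its opening and 4 in its closing part.

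**Figure D4:**
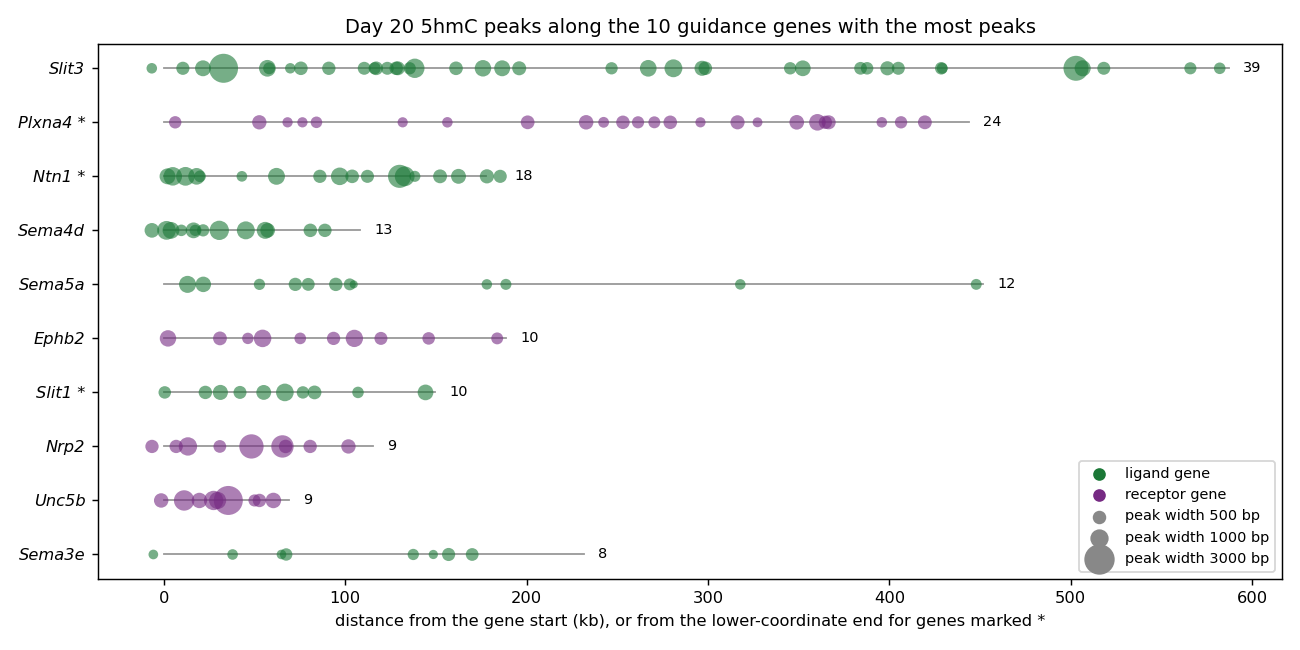
Day 20 peaks along the 10 guidance genes with the most peaks. The horizontal axis is distance in kb from the gene start, taken as the outer gene boundary on that side. For genes marked *, whose strand was not used, it is from the lower-coordinate end. Each circle is a peak with its area in proportion to width, and the number at the right is the count. Slit3 and Plxna4 carry peaks along their whole length. The opening part holds 19 of the 38 peaks inside Slit3 and 8 of the 12 inside Sema5a.

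Promoters are shown for the members where a day 20 peak overlapped the window from 250 bases before to 50 after the start, or came within 200 bp of it. They are RefSeq sequences (GRCm38.p6), printed 5′ to 3′ in the direction of the gene, with every CG dinucleotide, the main site of 5-methylcytosine and 5hmC in mammals, in capitals. A peak overlapped the first 3 windows and lay 19, 140 and 173 bp away from the other three.
Ephb1 (chr9:102354644-102354943, - strand): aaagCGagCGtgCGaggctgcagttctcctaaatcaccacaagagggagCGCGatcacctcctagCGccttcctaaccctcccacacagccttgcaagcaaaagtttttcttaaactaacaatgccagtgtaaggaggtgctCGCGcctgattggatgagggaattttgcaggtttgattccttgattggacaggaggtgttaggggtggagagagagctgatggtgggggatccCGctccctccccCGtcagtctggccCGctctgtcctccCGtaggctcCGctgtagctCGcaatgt
Sema4c (chr1:36558332-36558631, - strand): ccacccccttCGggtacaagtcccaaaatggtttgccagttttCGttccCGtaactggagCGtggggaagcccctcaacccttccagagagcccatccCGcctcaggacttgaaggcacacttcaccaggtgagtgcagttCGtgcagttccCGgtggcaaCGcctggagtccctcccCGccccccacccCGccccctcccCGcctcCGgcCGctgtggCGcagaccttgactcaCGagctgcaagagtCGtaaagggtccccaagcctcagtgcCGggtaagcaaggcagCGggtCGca
Sema4d (chr13:51748761-51749060, - strand): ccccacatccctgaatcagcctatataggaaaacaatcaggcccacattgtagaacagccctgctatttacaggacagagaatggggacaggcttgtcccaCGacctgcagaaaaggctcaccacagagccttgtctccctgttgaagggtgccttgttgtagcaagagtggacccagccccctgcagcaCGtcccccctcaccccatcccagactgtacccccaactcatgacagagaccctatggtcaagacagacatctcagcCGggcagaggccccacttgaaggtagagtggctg
Sema3c (chr5:17574566-17574865, + strand): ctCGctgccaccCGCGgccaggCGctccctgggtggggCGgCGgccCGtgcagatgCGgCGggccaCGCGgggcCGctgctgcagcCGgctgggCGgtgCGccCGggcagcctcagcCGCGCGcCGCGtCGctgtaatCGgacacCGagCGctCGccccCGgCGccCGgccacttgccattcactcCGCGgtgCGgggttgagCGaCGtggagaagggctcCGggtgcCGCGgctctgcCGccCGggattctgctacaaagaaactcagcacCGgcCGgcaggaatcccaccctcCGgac
Sema4b (chr7:80198338-80198637, + strand): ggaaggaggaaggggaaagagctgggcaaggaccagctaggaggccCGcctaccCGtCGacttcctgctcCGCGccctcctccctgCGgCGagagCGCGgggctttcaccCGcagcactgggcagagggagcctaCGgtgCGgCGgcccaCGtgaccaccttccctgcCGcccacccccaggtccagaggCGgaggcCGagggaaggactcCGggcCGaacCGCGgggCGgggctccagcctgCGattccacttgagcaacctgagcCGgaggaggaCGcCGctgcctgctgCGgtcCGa
Sema6c (chr3:95160170-95160469, + strand): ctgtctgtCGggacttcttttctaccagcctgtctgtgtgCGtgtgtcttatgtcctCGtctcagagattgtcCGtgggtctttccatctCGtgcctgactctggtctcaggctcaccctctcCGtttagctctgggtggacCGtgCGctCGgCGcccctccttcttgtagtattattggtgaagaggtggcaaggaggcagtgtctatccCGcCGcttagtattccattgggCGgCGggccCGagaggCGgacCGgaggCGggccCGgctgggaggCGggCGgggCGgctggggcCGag
The motif searched was CG, which reads the same on both strands. The windows held 14, 19, 3, 42, 28 and 23 CG in the order shown. At least 1 CG was present in 95.4% of 21263 protein-coding promoter windows, whose median was 13. Member windows had a median of 20, and 3 of 67 (4.48%) overlapped a peak, against 3.74% of all windows. Over all genes the windows with a peak had a median of 8 CG and those without a peak 13. The Sema4d window, with 3 CG, belongs to a start inside the gene, under a peak 1185 bp wide. The Sema3c window had the most CG of the 6, and its peak began 68 bp past the start.

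Member peaks had a median of 637 bp (quartiles 500.0 and 879 bp), against 601 bp for all day 20 peaks with a symbol. Peaks of at least 1 kb made up 50 of 259 (19.3%) against 13.6%. Medians were 630 bp in ligands and 650.5 bp in receptors. Among the 10 members described in full, Unc5b (884 bp) and Sema4d (792 bp) had the widest medians and Sema3e (441.5 bp) the narrowest.

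At day 0 the members had 2 rows, in Epha5 and Ephb1, or 2 of 60 genes against 1.81% of all protein-coding genes. Both peaks lay in the gene body, where 1.76% of protein-coding genes had a day 0 peak. The Ephb1 peak (chr9:102300629-102300782) was 154 bp wide and lay 53.9 kb from the start. It fell within a day 20 peak of Ephb1 (102300580 to 102301135), so 1 of the 2 day 20 peaks of this gene was also seen at day 0. The other one covered its start. The Epha5 peak (chr5:84380327-84380454) was 128 bp wide, 36.9 kb from the start, and had no day 20 counterpart. The nearest day 20 peak was 1401 kb away. Thus Epha5 was the only member with a day 0 row and no day 20 row. No ligand had a day 0 row. With 1050 peaks at day 0 and 56695 at day 20, and no depth to set beside them, a missing day 0 row does not show absence of 5hmC.

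Other genes of these families that are not in the list of 60 had a row in 7 of 12 cases, with 16 rows. That share (58.3%, 32.0 to 80.7%) has an interval that includes the 43.9% of all protein-coding genes. Ntng1 and Ntng2, the lipid-anchored netrin-G genes, had 4 each, the X-linked plexin Plxnb3, Epha8 and Epha10 had 2 each, and Ephb6 and Robo4 1 each. Robo3, Ntn3, Ntn5, Unc5a and Unc5d had none. Unc5d, a long gene of 573 kb, also had no peak in its flanks. Robo4, the endothelial member, was the only Robo gene with an assigned peak, and that peak lay outside the gene body.

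Downstream effectors, the cytoplasmic proteins that carry these signals to the cytoskeleton, had a row in 36 of 45 genes (80.0%, 66.2 to 89.1%), with 349 rows. Their median length was 124 kb, and a row was present in 43.9% of all protein-coding genes and 74.9% of those of 50 to 150 kb, a share that lies within the effectors' interval. The Slit list had a row in 6 of 6 genes, led by the Robo-binding GTPase regulators Srgap3 (25) and Srgap1 (11) with the actin regulator Enah (12) between them. The ephrin list had one in 11 of 11, led by the exchange factor Kalrn (33), the chimaerin Chn2 (26) and Itsn1 (19). The netrin list had one in 6 of 9, with 21 in Ablim1, 17 in Trio and 9 in Dock1. The semaphorin list had one in 13 of 19, with 22 in the kinase gene Fyn, 14 in Mical2 and 10 in Dpysl5. The median effector had 3.86 rows per 100 kb and the median member 3.70. Over summed length the values were 5.15 and 2.06, the latter including 0.923 in the members over 300 kb. At day 0, Itsn1, Ablim1 and Ptk2 had 1 row each.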

How the data were processed

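The labels described 4 libraries, 2 per stage, and 2 peak lists were used, 1 per stage. Per the file headers, each list was made from the stage's merged samples at an enrichment of 10-fold. What the enrichment is relative to, and whether the day 19 library entered the day 20 list, is unstated in the labels and headers. The submitters' processing notes name FastQC, cutadapt, BWA, MACS 1.4.2 and GRCm38 (mm10), without saying what each did. Each deposited row gave a peak's boundaries in base pairs, a symbol and a transcript accession, and 3 of 56698 day 20 rows without a readable end were left out. Read depth is unknown.

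Peaks were given to genes by the authors' symbol, and for all 259 member rows the accession led to the same gene. Gene boundaries came from RefSeq genes (GRCm38.p6) and strand from its promoter entries. Gene length is from boundary to boundary. Genes of similar length are protein-coding genes within 1.5 times. Counting was tested on simulated peaks and recovered the planted number in 200 of 200 genes. All members could be named; of other lists, up to 3 genes with the most rows and every gene of lists of 12 or fewer were. Members, lists and comparisons were chosen with earlier results of these data known, so no chance test was made. Alternatives covered gene assignment, peak width, merging, the choice of genes and overlap. Python 3.11.15, numpy 2.4.6, pandas 2.3.3, scipy 1.17.1 and matplotlib 3.10.9 were used.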

Additional observations from a re-analysis of the deposited data

How the results depend on the processing

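The number of members with a day 20 row, 46, ranged from 36 with peaks at least as wide as the list median to 48 with 5 kb on both sides. With 12 more genes of the same families counted in, 53 genes had a row, of which 7 were not members. The 259 member peaks fell to 152 with peaks at least as wide as the median and stayed between 249 and 271 under the other planned assignments, merging included. With the 12 further genes there were 275 peaks, of which 16 were not of members. The median of 4.54 rows per 100 kb in ligands became 3.25 by position in the gene body, 1.59 with wide peaks and 6.69 over genes with a row, and the median of 3.40 in receptors stayed at 3.40, became 1.35 and became 5.30. Alternatives without Slit3, and those on genes over 300 kb, were chosen after seeing the data. Without Slit3, 220 peaks remained. By position 4 ligands and 4 receptors over 300 kb had a peak. The day 0 results were the same under their alternatives. No paired analysis was possible because each stage had 1 merged list. Leaving out a library could not be run for the same reason, and a stricter threshold on enrichment could not be tried without a value per peak.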

Other observations

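RefSeq placed 9 microRNA genes within members, and in 2 of them a day 20 peak overlapped the hairpin. Mir6406 lies in Ntn1 (chr11:68220892-68221011) under a peak of 1292 bp (68220656 to 68221947). Mir7011 lies in Sema4a (chr3:88440879-88440951), within a peak of 514 bp (88440474 to 88440987). The mature products are shown with bases 2 to 8 in capitals, since these are the only hosted microRNAs of the list under a peak.
mmu-miR-6406: cGCGACCUcaggcugacucaug
mmu-miR-7011-5p: aGGAGGAUgggagagggaggugu
mmu-miR-7011-3p: uCUGCUUCccuccuccucuag
The 3 seeds differ from each other and from those of the miR-218 products. The hairpin of Mir7118 in Plxnb2 lay 0.965 kb from a peak and that of Mir7243 in Ephb1 3.79 kb from the peak shared between stages. Those of Mir691 in Robo2 and Mir218-1 in Slit2 lay over 100 kb from any peak, at 137 and 107 kb. Whether any of these microRNAs was expressed was not measured.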
